A study of Mus musculus with 36 samples.

Results

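MicroRNAs (miRs) in medium conditioned by lung endothelial cells (ECs) of LA-Tg mice were compared with those in medium of WT ECs. The 6 libraries compared, 3 of LA-Tg and 3 of WT, belong to a series of 36 libraries and were chosen by their sample labels. LA-Tg mice carry a wild-type human lamin A minigene behind a tet operon together with a tetracycline trans-activator driven by the endothelial VE-cadherin (Cdh5) promoter, received no treatment and served as the control for Prog-Tg mice, whose minigene holds the progeria mutation. WT mice were littermates, of which transgenic line is not stated. Both groups were kept on a mainly C57BL/6J background, and the trans-activator line was of FVB background. ECs came from mice aged 10 to 15 days, were isolated with ICAM-2 beads, and were grown in medium with 20% fetal calf serum. The labels give passage 3, whereas the methods for conditioned medium used in protein assays give passage 2. The methods state in general that experiments on WT and Prog-Tg ECs used separate primary isolates, but this is not stated for LA-Tg ECs or for these media in particular, so p values measure the spread between these libraries, which may in part be technical. The comparison asks whether additional wild-type lamin A alone alters the miRs found outside ECs.

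miRs are short RNAs that, loaded into Argonaute, pair with messenger RNAs through their seed, bases 2 to 8, and lower the stability and translation of their targets. They leave cells in vesicles and in complexes with proteins or lipoproteins, and survive in medium and blood. In ECs miR-126a-3p is the best known endothelial miR and supports vessel integrity, miR-132-3p promotes the growth response to angiogenic factors, and miR-34a-5p is a p53 target linked to senescence. Serum added to cultures brings its own miRs, and a bovine miR with the same mature sequence as the mouse miR cannot be told apart from it in these counts. Medium incubated without cells was not analysed here.

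The mature sequences of the miRs on which the comparison turns are given first, with the seed in capitals, from RefSeq (GRCm38.p6). Of the 599 miRs with a count in the 6 libraries, 516 had a mature sequence in this source. The first group had no count in LA-Tg medium and a count in each WT medium. miR-132-3p lies on chromosome 11 (75173723 to 75173744, plus strand), miR-339-5p on chromosome 5 (139369708 to 139369730, minus strand), miR-455-3p on chromosome 4 (63256904 to 63256924, plus strand), miR-1291 on chromosome 15 (98519828 to 98519853, minus strand) and miR-374b-5p on chromosome X (103573112 to 103573133, minus strand). miR-212-3p is shown because it shares the seed of miR-132-3p and lies 5′ of it on the same chromosome (75173443 to 75173464). miR-127-3p (chromosome 12, 109592888 to 109592909, plus strand) was higher in LA-Tg medium at an unadjusted p.
miR-132-3p: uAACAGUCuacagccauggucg
miR-212-3p: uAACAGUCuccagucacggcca
miR-339-5p: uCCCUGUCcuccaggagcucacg
miR-455-3p: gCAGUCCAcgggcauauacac
miR-1291: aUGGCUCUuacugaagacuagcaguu
miR-374b-5p: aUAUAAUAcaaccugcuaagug
miR-127-3p: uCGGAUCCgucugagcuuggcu
Apart from miR-132-3p and miR-212-3p, no pair of these miRs shared a seed.

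The second group belongs to the miR-10 and let-7 seed families, which together took more than 50% of the counts in 4 of the 6 media. miR-10b-5p (chromosome 2, 74726074 to 74726096, plus strand) and miR-10a-5p (chromosome 11, 96317186 to 96317208, plus strand) sit in the Hox gene clusters and share 1 seed, and let-7b-5p (chromosome 15, 85707325 to 85707346) and let-7c-5p (chromosome 15, 85706616 to 85706637, and chromosome 16, 77599672 to 77599693) share another. The endothelial miR-126a-3p (chromosome 2, 26591402 to 26591423, plus strand) is shown for comparison.
miR-10b-5p: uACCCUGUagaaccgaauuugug
miR-10a-5p: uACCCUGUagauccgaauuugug
let-7c-5p: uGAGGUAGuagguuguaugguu
let-7b-5p: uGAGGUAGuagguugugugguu
miR-126a-3p: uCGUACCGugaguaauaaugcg
miR-10a-5p and miR-10b-5p together took 6.51%, 34.2% and 40.8% of the counts in LA-Tg medium and 23.2%, 18.9% and 30.2% in WT medium. The 10 miRs with the let-7 seed took 6.06%, 34.8% and 32.3% in LA-Tg medium and 42.7%, 11.05% and 24.5% in WT medium. A read of let-7c-5p may have been counted at each of its loci, so the let-7 shares and the joint share above 50% may be too high. In both groups the library with the smallest let-7 share was the one with the largest miR-486 share, described next.

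Totals ranged from 266683 to 1137332 counts in the 6 libraries, and each group held 1 library that stood apart. The 4 miR-486 features, an abundant miR of red blood cells and muscle, took 64.2% of counts in LA-Tg replicate 1 but 4.94% and 1.64% in the other LA-Tg media. In WT medium they took 50.6% in replicate 2 and 0.807% and 1.46% in the others. These features are copies of 1 signal that entered the numerator and the total 4 times. Counted once, miR-486 took 30.9%, 1.28% and 0.416% of counts in LA-Tg medium and 0.203%, 20.4% and 0.371% in WT medium. The muscle miRs moved with them, since the list of muscle and smooth muscle miRs took 11.7%, 3.75% and 0.737% of LA-Tg counts and 0.210%, 5.58% and 0.186% of WT counts. That list holds both miR-1a-3p and its antisense partner miR-1b-5p, so its shares also count some reads more than once. The log2 CPM of LA-Tg replicate 1 correlated more closely with WT replicate 2 (Pearson r = 0.77 across tested miRs) than with LA-Tg replicates 2 (0.71) and 3 (0.66), and all share most miRs and the library kit. The source of miR-486 and the muscle miRs was not tested, and results that rest on these 2 libraries are given with and without them.

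**Figure D1:**
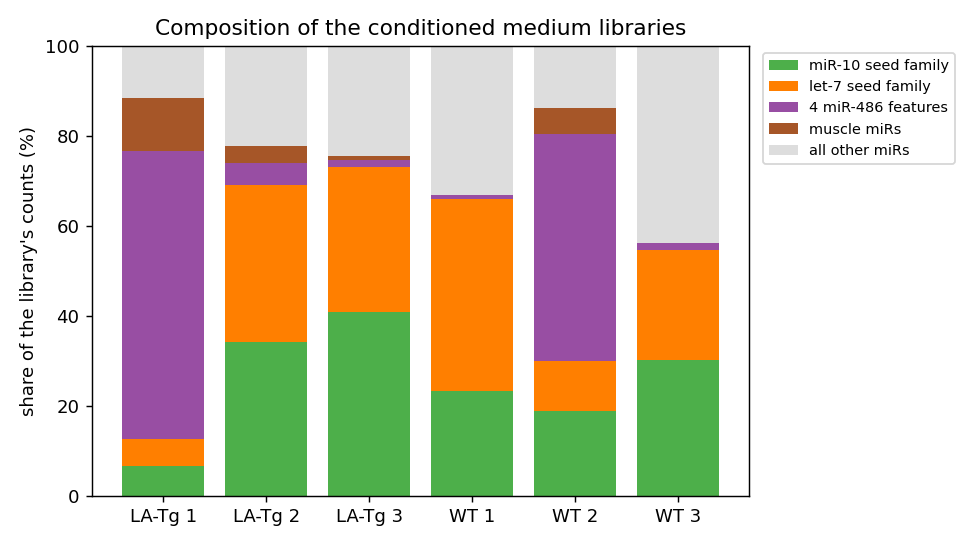
Share of each conditioned medium library's counts (%, stacked bars, 1 library per bar) taken by the miR-10 seed family, the let-7 seed family, the 4 miR-486 features, the muscle miRs and all other miRs. The miR-486 share, in which 1 signal is counted under 4 names, was 64.2% in LA-Tg replicate 1 and 50.6% in WT replicate 2, and at most 4.94% in the other 4 libraries. The muscle shares also count some reads more than once, and the let-7 shares may do so.

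The medium counts did not separate strands, which decides what a miR name means here. miR-126b-5p lies opposite miR-126a-3p, with 19 bases in common, and in medium it had the same count as miR-126a-3p in each of the 9 libraries of the 3 genotypes (4727 counts in all). In the corresponding EC libraries, miR-126a-3p had 21173071 counts and miR-126b-5p had 1. miR-374c-3p, opposite miR-374b-5p over 19 bases, likewise had the same 43 counts in medium and 0 counts against 12799 in ECs. miR-129b-3p, opposite one of the pair of loci of miR-129-5p over 20 bases, had 150 counts where miR-129-5p had 300, and in ECs 1 against 13166. miR-486a-3p equalled miR-486b-5p, and miR-486a-5p equalled miR-486b-3p, in all 9 medium libraries. Such partners are therefore 1 signal counted under 2 names, and a read matching several loci was also counted at each, as miR-199a-3p and miR-199b-3p show with 13939 and 6968 counts.

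No miR differed between LA-Tg and WT medium after adjustment. Of 255 miRs that passed the filter on low counts, 0 (0%) had an adjusted p under 0.05 in edgeR's quasi-likelihood test, where every adjusted p was near 1, and 0 did in DESeq2 and in limma-voom. At an unadjusted p under 0.05, 8 miRs (3.14% of those tested) differed, a share below 1 in 20. miR-127-3p was the only higher one (0.392%) and 7 were lower (2.75%), namely miR-132-3p, miR-339-5p, miR-455-3p, miR-467c-5p, miR-1291, miR-425-3p and miR-301b-3p. All 7 had 0 counts in each LA-Tg medium and passed the filter only through WT and Prog-Tg libraries, so their number and p values are a description. miR-455-3p passed through WT libraries alone, and the 3 WT libraries would by themselves have admitted miR-132-3p, miR-467c-5p and miR-1291. With library size alone as the scaling, miR-127-3p had an unadjusted p of 0.16 and 0 miRs were higher. In TMM-scaled CPM the LA-Tg and WT libraries did not overlap in 20 miRs (7.84%), 4 of them higher (1.57%) and 16 lower (6.27%) in LA-Tg medium. The fitted log2 fold change was below 0 for 147 miRs (57.6%), with a median of −0.19. Without WT replicate 2 the unadjusted counts were 13 higher and 14 lower, and without both miR-486-rich libraries of the groups compared and Prog-Tg replicate 1 they were 6 and 7. Leaving out LA-Tg replicate 1 left 0 and 3, LA-Tg replicate 2 left 2 and 7, LA-Tg replicate 3 left 1 and 4, WT replicate 1 left 0 and 3, and WT replicate 3 left 1 and 2.

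**Figure D2:**
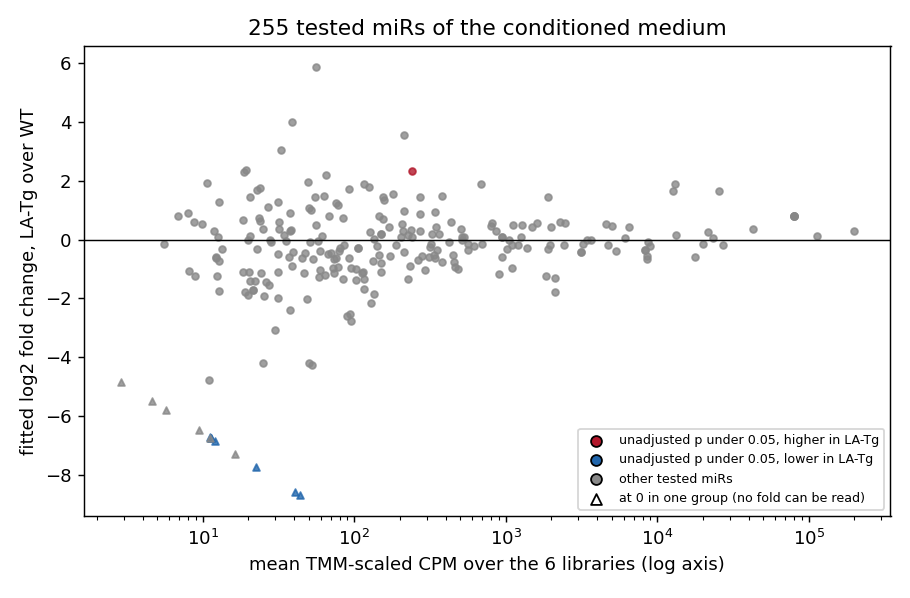
Fitted log2 fold change of LA-Tg over WT (vertical axis) against the mean TMM-scaled CPM of the 6 libraries (log axis) for the 255 tested miRs. Blue and red mark the 7 lower and the 1 higher miR at an unadjusted p under 0.05, and triangles are miRs at 0 in all LA-Tg media, for which the fitted value is no fold. Of these 8 miRs, miR-127-3p had the highest level, at a mean of 240.4 CPM.

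miR-132-3p, which in ECs follows growth factor and CREB signals, had the smallest p. It had 0 counts in LA-Tg replicates 1, 2 and 3 and 77, 19 and 73 counts in WT replicates 1, 2 and 3. With a floor of 3 counts over the LA-Tg group, it was at least 49.4-fold below the pooled WT level. This bound and the later ones take that level as given, with no allowance for the spread between libraries. The unadjusted p was 0.0129 and the adjusted p 1.00 over all tested miRs (edgeR's quasi-likelihood test). At the mean WT level, the LA-Tg libraries would have held 50.9, 25.0 and 62.0 counts. Without the 3 miR-486-rich libraries the unadjusted p of miR-132-3p was 0.00385 and its adjusted p 0.56. With all libraries its adjusted p was 0.22 in limma-voom and 0.12 in DESeq2, the lowest under any alternative. In Prog-Tg medium it had 0, 21 and 18 counts. miR-212-3p, its seed partner from the same cluster, was not tested, being too low in counts.

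miR-132-3p was present in the cells themselves. Its EC level was 364, 355 and 29.2 CPM in LA-Tg ECs and 133, 227 and 379 CPM in WT ECs, and these groups overlapped (log2 fold change 0.02, standard error 0.80, adjusted p = 1.00 in edgeR). The LA-Tg effect in medium minus that in ECs had an unadjusted p of 0.00126 and an adjusted p of 0.11 over 224 miRs. By DESeq2, the adjusted p of this difference was 0.00425. These p values are a description, since miR-132-3p was at 0 in each LA-Tg medium and entered through the other groups.

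miR-455-3p, known in mouse from cartilage and brown fat, had 0, 0 and 0 counts in LA-Tg medium and 27, 17 and 41 counts in WT medium. It was at least 24.8-fold lower in LA-Tg medium. As for each miR lower at an unadjusted p, no weight is given to its p, since no LA-Tg library helped it pass the filter. It passed through the WT libraries alone. Prog-Tg media also had 0 counts of miR-455-3p in each library, so the WT media were the only ones with it. Its EC levels averaged 66.0 CPM in LA-Tg and 49.0 CPM in WT.

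miR-339-5p had 0, 0 and 0 counts in LA-Tg medium and 11, 19 and 7 in WT medium, at least 10.8-fold lower in LA-Tg (unadjusted p = 0.0181 in edgeR). Unlike miR-455-3p, miR-339-5p was counted in all Prog-Tg media, with 34, 77 and 13 counts. It averaged 353 CPM in LA-Tg ECs and 361 CPM in WT ECs.

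miR-467c-5p, one of a large mouse miR cluster within an intron of Sfmbt2, had 0, 0 and 0 counts in LA-Tg medium and 18, 9 and 16 in WT medium. It was at least 12.6-fold lower in LA-Tg medium (unadjusted p = 0.0230 in edgeR). The other tested member of that cluster list, miR-669c-5p, had 197, 212 and 425 counts in LA-Tg medium and 479, 118 and 118 in WT medium, and its groups overlapped (log2 fold change 0.58, standard error 0.72).

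miR-1291 had 0, 0 and 0 counts in LA-Tg medium and 14, 15 and 8 in WT medium, at least 10.8-fold lower in LA-Tg (unadjusted p = 0.0276 in edgeR). miR-301b-3p, of the miR-130 and miR-301 family, had 0, 0 and 0 counts in LA-Tg medium and 5, 17 and 12 in WT medium, at least 9.93-fold lower in LA-Tg (unadjusted p = 0.0485 in edgeR). miR-425-3p rested on fewer libraries, with 0, 0 and 0 counts in LA-Tg medium and 0, 92 and 15 in WT medium, so its groups met at 0.

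**Figure D3:**
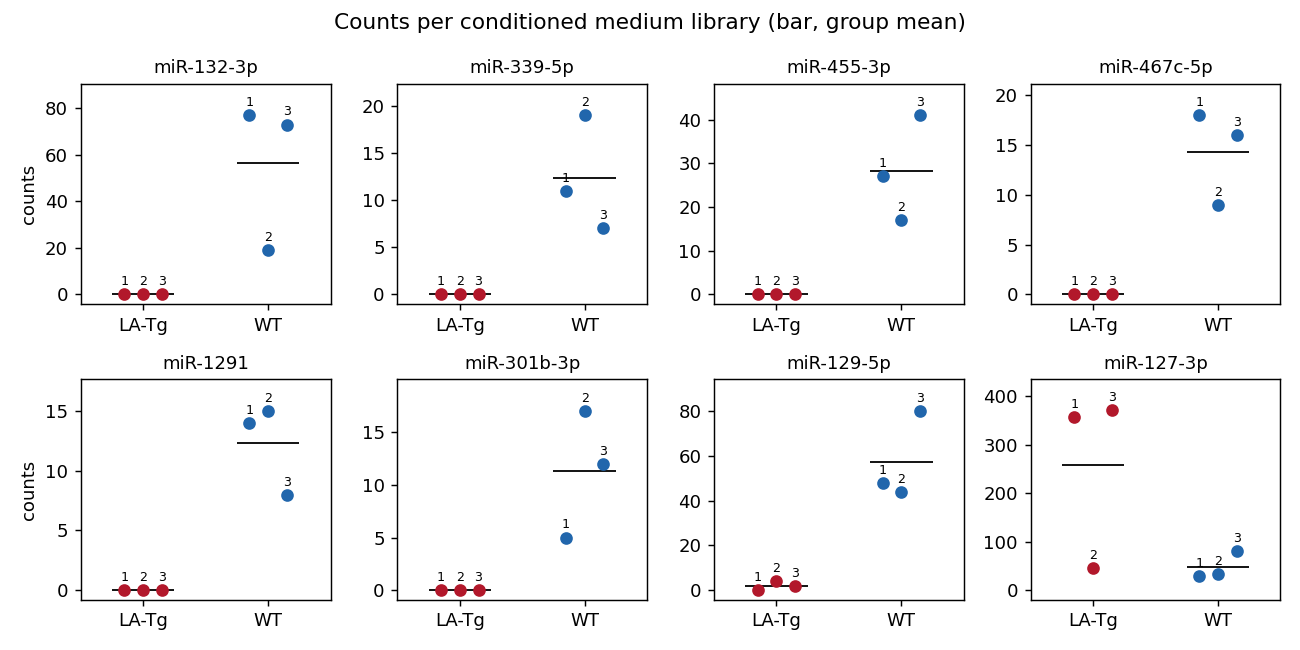
Counts of 8 miRs in each conditioned medium library, LA-Tg on the left and WT on the right of each panel. Points are libraries numbered by replicate and the bars are group means. For miR-132-3p the LA-Tg points are all 0 and the WT points are 77, 19 and 73.

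miR-127-3p, an imprinted miR of the Dlk1-Dio3 region expressed from the maternal chromosome, stood the other way. It had 357, 45 and 371 counts in LA-Tg medium and 30, 34 and 80 in WT medium. The TMM-scaled levels were 571, 147 and 487 CPM in LA-Tg medium and 35.4, 89.1 and 114 CPM in WT medium, without overlap. The fitted log2 fold change was 2.34 (standard error 0.93, unadjusted p = 0.0287, adjusted p = 1.00 in edgeR). By library total alone the groups overlapped, with 45 of 266683 counts in LA-Tg replicate 2 and 80 of 373938 in WT replicate 3. Prog-Tg media had 143, 144 and 132 counts, and the Prog-Tg minus LA-Tg difference was −0.58 on the log2 scale (standard error 0.89). In ECs the 2 groups overlapped, with 282, 17.96 and 50.5 CPM in LA-Tg and 118, 49.2 and 41.3 CPM in WT.

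In the whole Dlk1-Dio3 list 7 of 103 members were tested, of which 5 had a fold change above 0 and miR-127-3p alone passed at an unadjusted p. miR-541-5p had 191, 0 and 281 counts in LA-Tg medium and 17, 44 and 79 in WT medium, and its groups overlapped. The list took 0.0732%, 0.0169% and 0.145% of LA-Tg counts and 0.0159%, 0.0258% and 0.0955% of WT counts (two-sided exact permutation test, p = 0.60, n = 3 each).

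More miRs went uncounted in LA-Tg medium than in WT medium. Of the 599 miRs with a count in the 6 libraries, 58 had 0 counts in all LA-Tg media and at least 10 over the WT media. Another 18 of the 599 had 0 counts in all WT media and at least 10 over the LA-Tg media. Of the 58, 9 had a count in every WT medium and 37 in 2 of them. All 18 of the others came from a single LA-Tg library, 12 of them from LA-Tg replicate 3. Of the 58, 49 had a count in WT replicate 1 and 49 in WT replicate 3 but 15 in WT replicate 2, the miR-486-rich library. The members were chosen by these zeros, so their counts are a description, and 13 of the 58 and 0 of the 18 passed the filter.

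The 9 miRs counted in every WT medium included miR-374b-5p and its antisense partner miR-374c-3p, which are 1 signal with 0, 0 and 0 counts in LA-Tg medium and 14, 7 and 9 in WT medium. miR-700-3p had 0, 0 and 0 counts in LA-Tg medium and 4, 1 and 8 in WT medium. Of the 58, 49 had a count in all 3 LA-Tg EC libraries, and 27 had none in Prog-Tg medium. Of the 18, 6 had a count in all 3 LA-Tg EC libraries. The same shares over all 599 miRs were not computed, so these numbers only describe the members. The highest of the 18 was miR-200c-3p, an epithelial miR, with 85, 0 and 0 counts in LA-Tg medium and 0, 0 and 0 in WT medium.

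**Figure D4:**
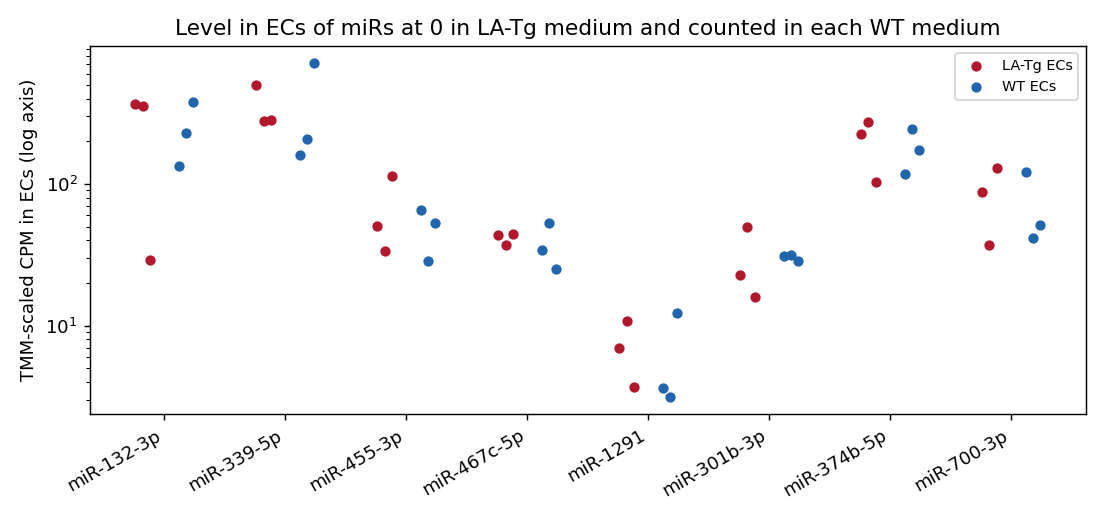
TMM-scaled CPM in ECs (log axis) of 8 miRs that had 0 counts in LA-Tg medium and a count in each WT medium. Points are the 3 LA-Tg EC libraries (left of each pair) and the 3 WT EC libraries (right). The groups overlap for each miR, for miR-132-3p with 29.2 to 364 CPM in LA-Tg and 133 to 379 CPM in WT.

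miR-129-5p, a miR mainly known from brain, was nearly absent rather than absent. It had 0, 4 and 2 counts in LA-Tg medium and 48, 44 and 80 in WT medium, without overlap (log2 fold change −4.21, standard error 2.27, unadjusted p = 0.0905 in edgeR). Prog-Tg media had 0, 78 and 44 counts of miR-129-5p. miR-582-3p had 0, 6 and 0 counts in LA-Tg medium and 40, 16 and 50 in WT medium (unadjusted p = 0.20 in edgeR). miR-324-5p had 0, 14 and 23 counts in LA-Tg medium and 111, 84 and 77 in WT medium (unadjusted p = 0.22 in edgeR), and miR-6538 had 1, 0 and 0 in LA-Tg medium and 5, 14 and 15 in WT medium. These groups did not overlap, and the largest unadjusted p of the 4 was 0.22.

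The numbers of miRs detected overlapped between the groups through WT replicate 2. When each library was reduced to 266683 counts, 175, 250 and 259 miRs were expected to be detected in LA-Tg medium and 372, 213 and 442 in WT medium. The means were 228 ± 46.5 miRs in LA-Tg and 342 ± 117 in WT (SD, n = 3 each), a difference of −114 (two-sided exact permutation test, p = 0.30, where the smallest p the design allows is 0.10). In each group the miR-486-rich library had the fewest. Without these libraries the values were 250 and 259 in LA-Tg medium and 372 and 442 in WT medium, a difference of −152 without overlap (exact permutation p = 0.33, the smallest that 2 against 2 allow). Without thinning the libraries held 205, 250 and 277 miRs in LA-Tg medium and 401, 223 and 461 in WT medium.

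The most abundant miRs differed by less than the spread between libraries. miR-10b-5p had the highest summed count in both groups, although miR-486a-3p exceeded it in LA-Tg replicate 1 and let-7c-5p in WT replicate 1. Reads of let-7c-5p may have been counted at each of its loci, so its place above miR-10b-5p is not settled by these counts. miR-10b-5p had 67545, 82429 and 213035 counts in LA-Tg and 135359, 89677 and 97717 in WT (log2 fold change 0.30, standard error 0.92). let-7c-5p had 23824, 54772 and 103445 counts in LA-Tg medium and 156549, 30365 and 41988 in WT medium (log2 fold change 0.12, standard error 0.94, below 0 in limma-voom and with library size alone). For let-7b-5p the value was 0.35 (standard error 0.78) and for miR-181a-5p −0.19 (standard error 0.59) on the log2 scale. miR-486a-3p, and miR-486b-5p with it, stood at 0.80 on the log2 scale (standard error 2.00), and at −3.13 without LA-Tg replicate 1 and 5.84 without WT replicate 2.

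The endothelial list held 22 tested members of 33, 11 above and 11 below 0, with 0 passing at an unadjusted p and a median log2 fold change of 0.03 (−0.19 over all tested miRs). With antisense partners counted once, 10 of 21 were above 0 and the median was −0.0080. miR-126a-3p took 0.0943%, 0.0787% and 0.0647% of counts in LA-Tg medium and 0.0716%, 0.0513% and 0.282% in WT medium. In ECs it ranked 1 by mean share, with 28.8%, 33.7% and 18.5% in LA-Tg and 28.6%, 31.8% and 28.4% in WT, whereas in medium it ranked 57. miR-10b-5p ranked 1 in medium and 9 in ECs. Medium and EC libraries were made with different kits (CleanTag and QIAseq), so kit and sample type cannot be told apart in these ranks. Within the list, miR-221-3p, which restrains migration of human ECs through KIT, had 385, 610 and 771 counts in LA-Tg medium and 4642, 492 and 1577 in WT medium (log2 fold change −1.32, standard error 0.68, unadjusted p = 0.0799 in edgeR).

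The miRs that the study followed as senescence-associated were not altered at the threshold. miR-34a-5p had 266, 80 and 21 counts in LA-Tg medium and 299, 31 and 144 in WT medium, with overlapping groups (log2 fold change 0.16, standard error 1.52, unadjusted p = 0.92 in edgeR). Its direction was not stable, at −0.68 without LA-Tg replicate 1 and −0.75 in limma-voom. miR-31-5p had 301, 140 and 502 counts in LA-Tg medium and 532, 186 and 461 in WT medium (log2 fold change −0.15, standard error 0.61). The study chose its 6 senescence-associated miRs on other libraries of this series, from ECs, and then used plasma to single out miR-34a-5p and miR-31-5p. With both arms of each included the list had 12 members, of which 4 were tested, 2 above and 2 below 0.

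Inflammatory miRs likewise overlapped. miR-21a-5p had 5255, 7201 and 8024 counts in LA-Tg medium and 30196, 2814 and 14243 in WT medium (log2 fold change −0.58, standard error 0.73). miR-181b-5p, which dampens NF-kappaB signalling in ECs, stood at −0.67 on the log2 scale (standard error 0.73). Of 6 tested members of this list 3 were above and 3 below 0.

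The fold changes of muscle miRs and miR-486 depended on which miR-486-rich library was left out. Of 10 tested muscle and smooth muscle miRs 9 were above 0, with a median log2 fold change of 1.47 and 0 at an unadjusted p. miR-1a-3p had 61658, 4806 and 1657 counts in LA-Tg medium and 708, 13610 and 252 in WT medium (log2 fold change 1.66, standard error 1.70). Without LA-Tg replicate 1 it was −0.53 and without WT replicate 2 it was 5.97. miR-133a-3p behaved alike, at 1.88 with all libraries, −0.39 without LA-Tg replicate 1 and 6.64 without WT replicate 2. With both of these libraries set aside, LA-Tg replicates 2 and 3 lay above WT replicates 1 and 3. The levels were 15654 and 2176 against 836 and 358 CPM for miR-1a-3p. For miR-133a-3p they were 7381 and 1410 against 255 and 142 CPM, and for miR-486a-3p 10739 and 3122 against 1525 and 1949 CPM. These levels keep the scaling of all 9 medium libraries and are a description. Of 9 tested blood cell features 6 were above 0, with a median of 0.80, but 4 of the 6 were the miR-486 features. With these counted once 3 of 6 were above 0 and the median was 0.20. With miR-1a-3p and its antisense partner counted once, 8 of 9 muscle and smooth muscle miRs were above 0 (median 1.47).

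Other families showed no called member. In the miR-17-92 cluster and its paralogs 4 of 9 tested miRs were above 0, and miR-25-3p had 308, 586 and 689 counts in LA-Tg medium and 4219, 418 and 1163 in WT medium (log2 fold change −1.23, standard error 0.71). miR-92a-3p, from the same list, stood at −0.0080 on the log2 scale (standard error 0.66). The let-7 list had 9 of 14 above 0 (median 0.11), the miR-30 list 4 of 8 (0.05), the miR-29 list 2 of 4 (−0.21), the liver and gut list 1 of 4 (−0.20) and the mesenchymal list 2 of 5 (−0.20), or 2 of 4 (0.078) with miR-199a-3p and miR-199b-3p counted once. miR-199a-3p, of the mesenchymal list, stood at −0.20 on the log2 scale (standard error 0.71, above 0 in limma-voom). miR-199b-3p, which shares its reads, had 1171, 243 and 549 counts in LA-Tg medium and 410, 821 and 875 in WT medium. The share of counts in each of the 15 lists gave exact permutation p values of 0.10 to 1, and Benjamini-Hochberg adjusted values of 0.82 to 1.

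The difference between medium and ECs was tested for 224 miRs. 0 passed at an adjusted p under 0.05 in edgeR (0%), and 17 did at an unadjusted p (7.59%), 1 of them (0.446%) with a higher and 16 (7.14%) with a lower LA-Tg effect in medium. In limma-voom 0 passed. In DESeq2 3 passed, and these were miR-455-3p, miR-467c-5p and miR-132-3p, each at an adjusted p of 0.00425. All 3 were at 0 in each LA-Tg medium, and miR-455-3p also in each Prog-Tg medium, so these calls rest on miRs that passed the filter through the groups where they were counted. The 16 lower miRs became 20, 35 and 28 without LA-Tg replicates 1, 2 and 3, and 16, 24 and 12 without WT replicates 1, 2 and 3. They became 32 without the 3 miR-486-rich libraries, 5 with only the groups compared and 9 without the miR-486 features. In ECs alone, 0 of 446 miRs passed for LA-Tg versus WT at an adjusted p and 3 (0.673%) at an unadjusted p, 2 of them higher (0.448%) and 1 lower (0.224%). Across the 224 miRs the medium and EC fold changes had a Pearson r of 0.03, with the same sign in 101, and miRs of 1 library are not independent.

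Prog-Tg medium was set against LA-Tg medium to see where the 2 transgenic lines differed. Of 255 miRs 0 passed at an adjusted p in edgeR, DESeq2 or limma-voom, and 15 (5.88%) did at an unadjusted p, 7 higher (2.75%) and 8 lower (3.14%) in Prog-Tg medium. These unadjusted counts were not stable, at 1 higher and 0 lower both with only the groups compared and with the replicate block, and at 4 and 1 in limma-voom. They were 4 and 7, 4 and 5, and 3 and 5 without LA-Tg replicates 1, 2 and 3, and 2 and 2, 12 and 8, and 1 and 2 without WT replicates 1, 2 and 3. Without the 3 miR-486-rich libraries they were 11 and 9. Among the 7 miRs lower in LA-Tg than in WT medium at an unadjusted p, miR-339-5p was higher in Prog-Tg than in LA-Tg medium (unadjusted p = 0.00890 in edgeR), as were miR-132-3p (0.0299), miR-1291 (0.0330) and miR-467c-5p (0.0375). miR-301b-3p (0.0648) and miR-425-3p (0.11) missed the threshold, and miR-455-3p was at 0 in both lines. This contrast shares the LA-Tg libraries with the comparison above, so the 2 sets of values are not independent. All 7 miRs were at 0 in each LA-Tg medium, so any Prog-Tg count placed them higher. Their direction was thus fixed by the choice, and their p values are a description.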

How the data were processed

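The authors prepared medium libraries with the CleanTag kit and EC miR libraries with the QIAseq kit, aligned reads to GRCm38 with STAR 2.5.1b (2-pass), counted them with HTSeq 0.5.4p3 and deposited raw counts per miR. No normalised values were used. Medium totals were 266683 to 1137332 counts and EC totals 2015256 to 18477136 for LA-Tg and WT. A count of 0 allows a share of up to 0.000264% to 0.00112% (3 counts of the total, counting error only).

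Samples were grouped by their labels. All 9 medium libraries (3 genotypes) were fitted together in R 4.3.3 with edgeR 4.0.16, after filterByExpr (minimum count 10, minimum total 15) and TMM scaling, with the quasi-likelihood F test and Benjamini-Hochberg adjustment over all tested miRs. Standard errors are the log2 fold change over the root of F. CPM are TMM-scaled. Bounds set a floor of 3 counts over a group at 0 against the pooled level of the other group. They leave out the spread between libraries. The difference between medium and ECs was an interaction over 18 libraries. Shares and detected miRs were compared by exact permutation. The tests were tried on simulated data.

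miRs named were the 8 most abundant, the 12 lowest in p among those with separate groups, the 2 most abundant tested members of each list, miR-34a-5p, miR-31-5p, and miRs at 0 in 1 group with at least 10 counts in the other. miR-126a-3p, miR-221-3p and miR-212-3p were added after their values were seen. The members and the 15 lists were chosen with earlier results of these data known. Alternatives were DESeq2 1.42.0, limma-voom (limma 3.58.1), no filter, a stricter filter (over 10 CPM in 3 libraries), RLE scaling, library size alone, only the groups compared, a replicate block, identical miRs collapsed, miR-486 features left out, each library left out and, chosen after seeing the data, the 3 miR-486-rich libraries left out. Sequences came from RefSeq.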

Additional observations from a re-analysis of the deposited data

How the results depend on the processing

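The count of 0 miRs at an adjusted p under 0.05 for LA-Tg versus WT medium held under each alternative, leave-one-out included (0 to 0), as did 0 for Prog-Tg versus LA-Tg. For the difference between medium and ECs it was 0 under all alternatives but DESeq2 (3), and the cause was not tested. Deviations of same-numbered LA-Tg and WT libraries correlated at −0.35, −0.31 and 0.30, and those of Prog-Tg and LA-Tg at 0.40, 0.097 and 0.077. Such values cannot decide whether same-numbered libraries were prepared together. The replicate block gave 0 calls at an adjusted p, with 0 higher and 1 lower at an unadjusted p. At an unadjusted p, 11 miRs were lower in limma-voom, 3 with only the groups compared, and 4 higher without a filter. The 1 higher miR, miR-127-3p, had an unadjusted p of 0.16 with library size alone (log2 fold change 1.78) and 0.089 without a filter. Of 39 named miRs 22 kept their direction under every alternative. These 22 include the 12 named because their groups did not overlap, whose direction was largely set by that choice. Copies of 1 signal under several names were counted separately, so the count is no measure of stability. None of the following reversals passed the threshold, and their cause was not tested.

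miR-34a-5p was at −0.044 in DESeq2, −0.75 in limma-voom, −0.044 with RLE scaling, −0.68 with library size alone, −0.30 with the replicate block and −0.91 without the 3 miR-486-rich libraries. let-7c-5p was at −0.043 in limma-voom, −0.038 with library size alone and −0.17 with the block. miR-486a-3p and miR-486b-5p were at −0.21, and miR-486a-5p and miR-486b-3p at −0.20, with the block. In limma-voom miR-199a-3p was at 0.022 and miR-199b-3p at 0.043. With only the groups compared, miR-92a-3p was at 0.055, miR-30a-5p at 0.030 and miR-192-5p at 0.049. Without the miR-486 features these were at 0.082, 0.085 and 0.12. miR-92a-3p was at 0.0077 with identical miRs collapsed, and without the 3 libraries miR-30a-5p was at 0.14 and miR-192-5p at 0.46.

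With each library left out in turn, the log2 fold changes ranged from −0.34 to 0.70 for let-7c-5p, −3.13 to 5.84 for miR-486a-3p and miR-486b-5p, −3.14 to 5.86 for miR-486a-5p and miR-486b-3p, −0.43 to 0.085 for miR-181a-5p, −0.046 to 0.54 for miR-10a-5p, −1.19 to 0.43 for miR-181b-5p, −0.68 to 0.69 for miR-34a-5p, −0.30 to 0.38 for miR-92a-3p, −2.26 to 0.53 for miR-29a-3p, −0.47 to 0.091 for miR-30a-5p, −0.53 to 5.97 for miR-1a-3p, −0.39 to 6.64 for miR-133a-3p, −0.36 to 0.15 for miR-192-5p, and −0.82 to 0.34 for miR-199a-3p and miR-199b-3p.

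The difference in share of counts (LA-Tg minus WT, in percentage points) had no setting in which p could reach 0.05. Without the miR-486 features it was −0.685 for endothelial miRs and −0.312 for blood cell miRs, and with TMM scaling 1.79 for the let-7 family and 0.00122 for the miR-29 family. With each library left out it ranged from −6.32 to 11.8 for endothelial miRs, −14.6 to 21.9 for blood cell miRs, −9.37 to 7.42 for the let-7 family, −0.0603 to 0.00485 for the miR-29 family, −1.38 to 0.0192 for the miR-30 family, −0.110 to 0.0106 for liver and gut miRs, −0.000715 to 0.0633 for Dlk1-Dio3 miRs and −0.00618 to 0.0279 for Sfmbt2 cluster miRs. The difference in detected miRs ranged from −179 to −64.5.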
